A study of Mus musculus with 4 samples.

Results

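The deadenylase genes outside the CCR4-NOT complex were followed in mouse embryonic stem cells (ESCs) depleted of CNOT1. They were taken by name from the count table, 8 of 50559 genes listed: Pan2, Pan3, Parn, Toe1, Noct, Angel1, Angel2 and Pde12. The cells were E14 ESCs, a feeder-independent line. In the study's methods, ESCs were kept on gelatin with leukemia inhibitory factor and serum replacement. The control group (siNT) received a non-targeting siRNA and the Cnot1-KD group (siCnot1) an siRNA against Cnot1, in both cases at 150 nM with collection at 48 h, and each group had 2 biological replicates. The study's methods describe ESCs that carry a MERVL promoter-driven tdTomato reporter, a mark of the 2-cell-like state, while the labels of these libraries name E14 alone. A knockdown leaves part of the Cnot1 mRNA, and mRNA level reports neither deadenylase protein nor poly(A) tail length.

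Deadenylases remove the poly(A) tail from the 3′ end of mRNAs, the step that commonly opens cytoplasmic mRNA decay. PAN2-PAN3 trims long tails, CCR4-NOT takes over and carries the main load, and CNOT1 is the scaffold on which its nucleases assemble. The other enzymes are divided by their catalytic domain into the DEDD family (PAN2, PARN, TOE1) and the EEP family (nocturnin, ANGEL1, ANGEL2, PDE12), and several are better known for trimming noncoding or mitochondrial RNAs. The comparison asks whether the mRNAs of these other enzymes were raised when the CCR4-NOT scaffold was lowered.

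Cnot1 itself was counted at 913 and 986 normalized CPM (library-scaled counts, with TMM scaling) in siNT and at 185 and 192 in siCnot1, that is 19.8% of control (log2 fold change -2.33, adjusted p = 2.37e-18, edgeR's quasi-likelihood test). The 4 libraries held 32135824 to 32557440 counts, so that 3 counts, taken as the floor, equal 0.0921 to 0.0934 CPM for counting error alone. The 5 pluripotency markers (Pou5f1, Sox2, Nanog, Esrrb, Zfp42) were abundant, summing to 4138 to 4260 CPM in siNT and 3560 to 3773 in siCnot1, and 4 of 5 were lower. Markers of 2-cell-like cells summed to 62.5 to 63.7 CPM in siNT and 159 to 165 in siCnot1, with 4 of 6 higher. Sums for primitive endoderm were 8.49 to 10.7 against 13.7 to 14.6 CPM (1 of 5 higher, Pdgfra), for trophectoderm 21.1 to 23.0 against 21.8 to 24.5 (1 of 4 tested higher, Krt7) and for fibroblast feeders 8.94 to 12.2 against 12.7 to 13.3 (1 of 3 tested higher, Col1a1), with Col3a1 at 0 counts in every library. The part of these shifts in the results that follow was not tested.

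None of the 8 genes was higher in siCnot1, 1 was lower, and 7 did not pass the threshold at an adjusted p of 0.05. The gene that fell was Noct, to 61.7% of its control level. Over all 18144 genes tested, 15% were higher and 14.7% were lower in siCnot1. Every member was well counted, with 1093 to 6495 counts per library, and among the 5710 genes at or above the level of the lowest member the shares were 14% higher and 31.3% lower. Against these shares, the counts of 0 and 1 among 8 genes are no result about the members as a group. The study's own criteria, a p of at most 0.05 and a change of at least 1 on the log2 scale, were set on DESeq2 results. Applied here to the edgeR fit, they gave 6.18% of tested genes higher and 1.8% lower, and the members held 0 of either. One member, Noct, had an unadjusted p under 0.05, and DESeq2 and limma-voom also called 0 members higher and 1 lower. In bulk RNA, fewer cells of one kind and less RNA per cell cannot be told apart. TMM and the other scalings used below are relative within a library, so a rise shared by all mRNAs would not show.

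**Figure D1:**
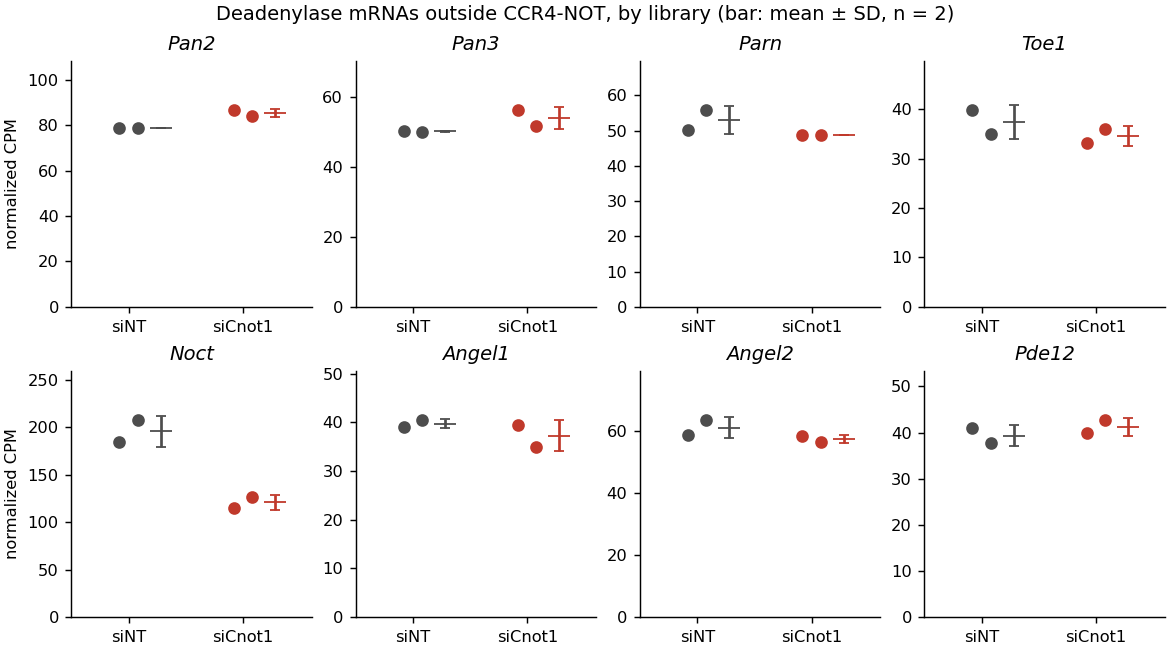
Normalized CPM (vertical axis, from 0, its own scale in each panel) of the 8 deadenylase mRNAs in each of the 2 siNT (grey) and 2 siCnot1 (red) libraries, with the mean and SD of each group as a bar. Noct sits at 184 and 207 CPM in siNT and at 115 and 126 in siCnot1, while the groups of Toe1, Angel1 and Pde12 overlap.

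Both partners of the PAN2-PAN3 complex lay slightly above control, without passing the test. PAN2, the catalytic subunit, is a DEDD exonuclease, and PAN3 is a pseudokinase that dimerizes, binds poly(A) and recruits PAN2 through poly(A)-binding protein and GW182 proteins. Pan2 (chr10:128135106-128157227, plus strand, GRCm39) was counted at 78.66 and 78.68 normalized CPM in siNT and at 86.5 and 84.1 in siCnot1. The siCnot1 libraries were both above the siNT libraries, with a log2 fold change of 0.12 (SE 0.0670, adjusted p = 0.203, edgeR) and a 95% interval from -0.02 to 0.26, or at most 1.19-fold. Pan3 (chr5:147363018-147485311, plus strand) was counted at 50.3 and 50.1 normalized CPM in siNT and at 56.2 and 51.8 in siCnot1. The siCnot1 libraries were again the higher pair, by 0.11 on the log2 scale (SE 0.0817, adjusted p = 0.360, edgeR), with an interval that reaches 1.21-fold. This was the widest upper bound among the 7 genes that did not pass. The ratio of Pan2 to Pan3 was 1.56 and 1.57 in the control libraries and 1.54 and 1.62 after knockdown, and the difference between the group means was smaller than the spread of the siCnot1 pair.

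A pair of siCnot1 libraries above or below both siNT libraries is common in these data. Over all genes tested, 32.7% had both siCnot1 libraries above and 31.2% had both below. Among the members 2 lay above (Pan2, Pan3), 3 below (Noct, Parn, Angel2) and 3 overlapped. For Pan2 the result depends on the scaling: with library totals in place of TMM its log2 fold change was 0.22 and passed (adjusted p = 0.0126, edgeR). That scaling moved the median of all genes to 0.12, and relative to this median Pan2 stood at 0.11.

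The DEDD enzymes that act mainly in the nucleus were slightly below control with TMM, and neither passed the test. With library totals in place of TMM, Parn stood at -0.015 and Toe1 at -0.0026 on the log2 scale. PARN is a cap-stimulated poly(A) ribonuclease that trims the ends of telomerase RNA and of H/ACA small nucleolar RNAs. Parn (chr16:13355828-13486035, minus strand) was counted at 50.3 and 55.8 normalized CPM in siNT and at 48.8 and 48.7 in siCnot1. Its siCnot1 libraries were close to the lower siNT library, and its log2 fold change was -0.12 (SE 0.0836, adjusted p = 0.298, edgeR; interval -0.30 to 0.05). TOE1 resides in Cajal bodies and matures the 3′ ends of small nuclear RNAs. Toe1 (chr4:116661200-116664787, minus strand) was counted at 39.8 and 34.9 normalized CPM in siNT and at 33.2 and 36.0 in siCnot1. The 2 groups overlapped, with a log2 fold change of -0.11 (SE 0.0962, adjusted p = 0.432, edgeR; interval -0.31 to 0.09). Its lower bound, 0.808-fold, was the lowest among the 7 genes that did not pass. Toe1 shares 251 exon bases, 12.04% of its exon length, with Tesk2 on the opposite strand (945 and 906 counts in siNT, 902 and 908 in siCnot1), and since the strand setting of the counting is not given in the sources used here, reads there cannot be assigned to one gene.

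Nocturnin had the highest level of the members and the one fold change whose 95% interval overlapped no other member's. It is an EEP-family enzyme known for rhythmic expression and for roles in lipid metabolism, first described as a deadenylase and later shown to remove the 2′ phosphate of NADP(H). Noct (chr3:51131868-51159075, plus strand, 4 exon blocks) had 5728 and 6495 counts in siNT and 3862 and 4220 in siCnot1. In normalized CPM these were 184 and 207 against 115 and 126, and the groups lay apart by more than either group's range. The means were 196 ± 16.3 and 121 ± 7.65 (SD, n = 2), a log2 fold change of -0.70 (SE 0.0666, interval -0.83 to -0.56, adjusted p = 4.73e-08, edgeR). Among the 5710 well-counted genes 56, or 0.981%, had a lower fold change, and among all tested genes 935 did. Among genes listed on a single chromosome, the only ones searched, Noct, Pan3, Parn and Angel2 share no exon bases with another gene. The remaining overlaps, of Pan2, Angel1 and Pde12, are with genes at 0 counts apart from those named at Toe1 and Angel1. Since the counter is not given, 0 counts do not show that no reads fell in the shared bases.

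**Figure D2:**
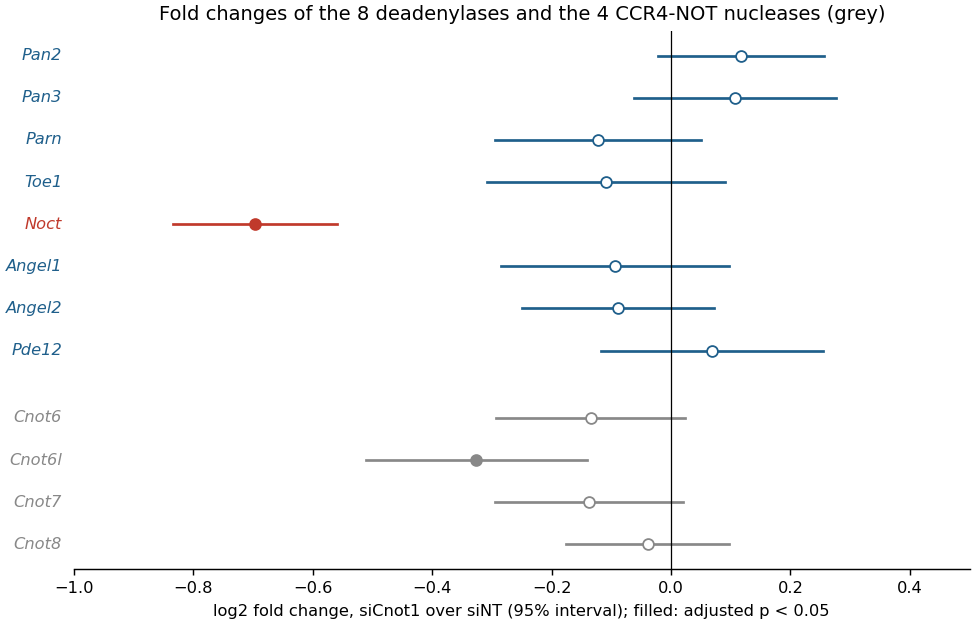
Log2 fold change, siCnot1 over siNT (horizontal axis), with the 95% interval from edgeR for the 8 deadenylases and, in grey, the 4 nucleases of CCR4-NOT. Filled points passed an adjusted p of 0.05; these are Noct at -0.70 and Cnot6l at -0.33, and the other intervals all include 0.

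The 3′ UTRs of Noct, Pan3 and Pde12 hold the core letters of AU-rich elements, a class of sequence through which several RNA-binding proteins recruit deadenylases. The core letters TATTTAT were searched on the sense strand in the 3′ UTR of one principal transcript per gene (GENCODE M21, GRCm38, matched by gene name), and 28.0% of 13741 such UTRs of tested genes hold them. The windows below show each match among the 8 members, with the core in capitals, so that the Noct sites can be compared with those of members that did not pass the test.
Noct, base 337 of 1112: catttcaagtTATTTATttgtgggatt
Noct, base 388 of 1112: tgcatggtaaTATTTATttttttatat
Pan3, base 1554 of 2115: ctttgttttaTATTTATttttcatttc
Pde12, base 220 of 5567: gaggaaaacaTATTTATgactagcaag
Positions count from the first base after the stop codon. Of 1953 UTRs within 20% of the length of that of Noct, 26.8% held at least 1 match and 7.22% held 2 or more. In the length range of Pan3 the share with a match was 41.2%, and in that of Pde12 it was 66.1%. The shorter letters ATTTA, which are part of TATTTAT, occurred 4 times in Noct, 20 times in Pde12, 3 times each in Pan3 and Angel2 and once in Toe1, and 66.7% of all UTRs held it. In the length ranges of these 5 members the share with as many matches or more was 18.7% for Noct, 5.02% for Pde12, 59.2% for Pan3, 52.7% for Angel2 and 46.1% for Toe1. A Pumilio element, TGTANATA, occurred in none of the 8 UTRs and in 24.5% of all UTRs, or 9.96 to 64.5% in the members' length ranges. The seed match of miR-294-3p, AGCACTT, a microRNA abundant in ESCs, occurred once each in Pan3 and Angel2 and 2 times in Pde12, with 15.7% of all UTRs holding it. In their length ranges 23.2%, 19.4% and 54.4% of UTRs held at least 1 such match. The Pde12 matches lie at bases 4811 and 5042 of its 5567-base UTR. Its deposited exons sum to only 3529 bases, so part of that UTR lies outside what was counted. These matches are letters in a sequence, and no binding was measured.

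The remaining EEP enzymes did not pass the test. ANGEL1 is known to bind the cap-binding protein eIF4E, and ANGEL2 removes 2′,3′-cyclic phosphates from RNA ends. Angel1 (chr12:86740185-86781075, minus strand) was counted at 39.0 and 40.4 normalized CPM in siNT and at 39.5 and 34.9 in siCnot1. The groups overlapped, with a log2 fold change of -0.09 (SE 0.0925, adjusted p = 0.493, edgeR; interval -0.28 to 0.10). Angel1 shares 2278 exon bases, 19.3% of its exon length, with Vash1 on the opposite strand, and Vash1 was at 41.3 and 36.5 normalized CPM in siNT and 29.8 and 37.2 in siCnot1 (adjusted p = 0.131, edgeR). Angel2 (chr1:190657305-190679160, plus strand) was counted at 58.7 and 63.4 normalized CPM in siNT and at 58.2 and 56.5 in siCnot1. Both siCnot1 libraries were just under the lower siNT library, with a log2 fold change of -0.09 (SE 0.0776, adjusted p = 0.426, edgeR; interval -0.25 to 0.07). PDE12 is a mitochondrial enzyme that removes poly(A) from mitochondrial transcripts and cleaves 2′-5′ oligoadenylates. Pde12 (chr14:26385272-26391001, minus strand) was counted at 40.9 and 37.7 normalized CPM in siNT and at 39.9 and 42.6 in siCnot1. The groups overlapped, with a log2 fold change of 0.07 (SE 0.0899, adjusted p = 0.619, edgeR; interval -0.12 to 0.25).

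**Figure D3:**
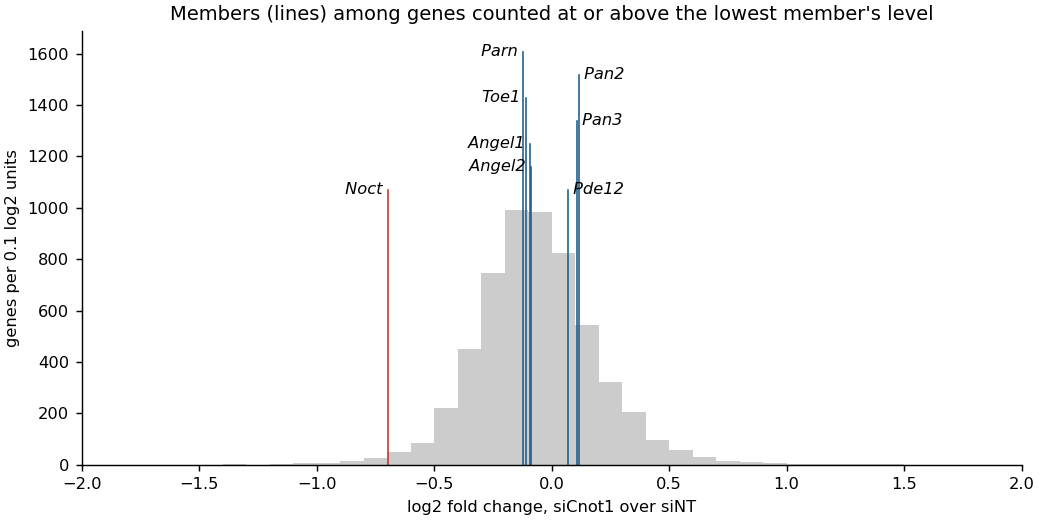
Number of genes (vertical axis) per 0.1 units of log2 fold change, siCnot1 over siNT (horizontal axis, shown from -2 to 2), for the 5710 tested genes at or above the level of the lowest member, with the 8 members as lines. Noct lies at -0.70, below the 5% quantile of -0.45, and the other 7 lie between -0.12 and 0.12, with Pan2 and Pan3 above the upper quartile of 0.08 and the median at -0.08.

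Summed over the group, the level was lower in siCnot1, and most of that difference lay in Noct. The 8 mRNAs together reached 542 and 568 normalized CPM in the control libraries and 478 and 481 after knockdown. Without Noct the sums were 358 and 361 against 362 and 355, means of 359 ± 2.38 and 359 ± 5.38 (SD, n = 2). The difference between these means was smaller than the spread within either group, but the direction of this sum depends on the scale. With library totals in place of TMM the 7 mRNAs summed to 344 and 347 CPM in the control libraries and to 378 and 366 after knockdown, both higher. Per length and with TMM their sum was 75.8 and 75.4 FPKM in the control libraries and 73.3 and 73.9 after knockdown, both lower.

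Compared per length, Noct was the most abundant of the 8 mRNAs in both groups. With the exon length of the deposited table it stood at 59.2 and 66.6 FPKM in siNT and at 37.0 and 40.5 in siCnot1. Toe1, Parn, Angel2 and Pde12 followed at 17.9 ± 1.66, 16.2 ± 1.20, 13.5 ± 0.737 and 11.1 ± 0.637 FPKM in siNT (SD, n = 2). The values of Toe1 and Parn overlapped, and below Parn no neighbours in this order did. Pan2 (8.45 ± 0.00141), Pan3 (4.97 ± 0.0129) and Angel1 (3.36 ± 0.0819) were lowest, and the order was kept in siCnot1. The deposited length sums every annotated exon, and it exceeds the principal transcript by far for Angel1 (11814 against 3850 bases), Pan2 (9305 against 4445) and Pan3 (10097 against 5048), and falls short of it for Pde12 (3529 against 7725). With the principal transcript, a choice made after seeing the data, Noct stayed first at 64.0 ± 5.34 FPKM in siNT. Parn, Toe1 and Pan2 could not be ordered at 18.3 ± 1.35, 17.9 ± 1.65 and 17.7 ± 0.00296. Angel2, at 16.4 ± 0.895, overlapped the values of Toe1, and Pde12 became the lowest at 5.09 ± 0.291. The order of the lower 7 thus depends on the length used, and the first place of Noct does not.

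**Figure D4:**
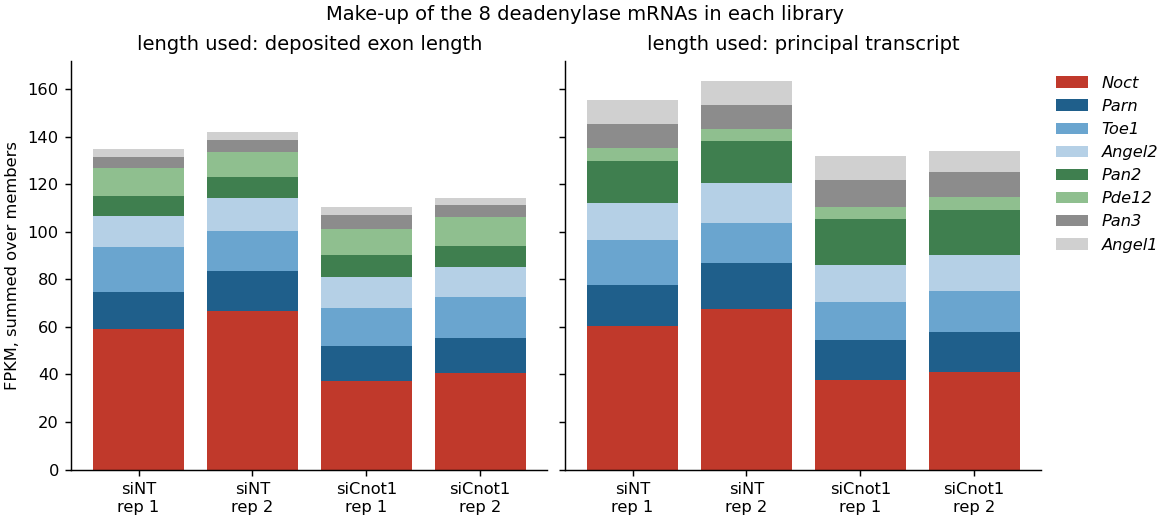
FPKM of the 8 deadenylase mRNAs stacked in each library (vertical axis), with the deposited exon length on the left and the principal transcript length on the right. Noct, in red at the base, makes up 43.8 and 46.9% of the stack in siNT and 33.6 and 35.4% in siCnot1 with the deposited length.

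Of the nucleases of CCR4-NOT itself, 1 of 4 was lower and none was higher. Lower were 14.7% of all genes tested and 31.3% of well-counted genes, so the count is no result about the 4 as a group. The complex carries a CCR4-type EEP enzyme (CNOT6 or CNOT6L) and a CAF1-type DEDD enzyme (CNOT7 or CNOT8). Cnot6l was at 45.6 and 48.05 normalized CPM in siNT and at 35.3 and 39.3 in siCnot1, and fell by 0.33 on the log2 scale (SE 0.0896, adjusted p = 0.00756, edgeR). This call held in 6 of 8 other choices of scaling, filter, tool or block, but not in most fits that left 1 library out. With library totals Cnot6l stood at -0.22 and did not pass (adjusted p = 0.0657, edgeR). Cnot6, Cnot7 and Cnot8 stood at log2 fold changes of -0.13, -0.14 and -0.04 with adjusted p of 0.201, 0.187 and 0.710 (edgeR). Summed over the 4 nucleases, the level was 53.5 and 56.3 FPKM in the control libraries and 51.3 and 50.3 after knockdown. Of the 7 subunits without nuclease activity Cnot1, which the siRNA targets, and Cnot10 were lower, Cnot10 by 0.19 on the log2 scale (adjusted p = 0.0186, edgeR). The other 5 did not pass, with Cnot3 at -0.16 and Cnot9 at -0.13 closest (adjusted p = 0.0683 and 0.103, edgeR).

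Genes that work beside the 8 enzymes were counted in lists. Over 71 tested genes besides the members, 8.45% were higher and 25.4% lower. The shares were 15% and 14.7% over all genes tested, and 14% and 31.3% among well-counted genes. Some of the 71 lie below the level of the well-counted genes, and the targeted Cnot1 is among those that fell. Of the 10 adaptors that bring PAN2-PAN3 or CCR4-NOT to mRNAs, 3 rose and 1 fell, with a median log2 fold change of -0.05 over the list. Over all genes tested the median was 0.01 and over the well-counted genes -0.08, to which this and the later list medians compare. Btg2 and Btg1, antiproliferative proteins that bind the CAF1-type nucleases, rose from 47.0 and 51.2 to 75.3 and 73.7 normalized CPM and from 35.0 and 37.0 to 49.9 and 48.1, that is by 0.60 and 0.44 on the log2 scale (adjusted p = 2.72e-06 and 0.000409, edgeR). Tnrc6a, a GW182 protein, rose by 0.19 and Pabpc4, a cytoplasmic poly(A)-binding protein, fell by 0.22 (adjusted p = 0.0213 and 0.00482, edgeR). Of 10 other DEDD exonucleases, Aen, an apoptosis-enhancing nuclease, rose by 0.30, and Eri1, the histone mRNA exonuclease, fell by 0.25 (adjusted p = 0.000379 and 0.0103, edgeR), while Eri3 and Rexo1 stood at -0.19 and 0.15 (adjusted p = 0.112 and 0.130).

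The lists around PARN and TOE1 concern RNAs whose ends these enzymes trim. Their counts stand beside 15% higher and 14.7% lower over all genes tested, and 14% and 31.3% among well-counted genes. Of 9 telomerase and H/ACA genes 1 rose and 3 fell, with a median log2 fold change of -0.13. Gar1, Nhp2 and Naf1, proteins of the H/ACA particle or of its assembly, fell by 0.34, 0.19 and 0.20 on the log2 scale (adjusted p = 0.000786, 0.0220 and 0.0434, edgeR), and Tert, the telomerase reverse transcriptase, rose by 0.46 (adjusted p = 0.0203). Of 7 genes of small nuclear RNA processing and the Cajal body 2 fell, Tut1, a terminal uridylyltransferase for U6, by 0.34 and Ints11, the endonuclease of the Integrator complex, by 0.29 (adjusted p = 0.00188 and 0.00212, edgeR), and the list median was 0.04. Smn1 and Ints9 stood at -0.19 and 0.10 (adjusted p = 0.0510 and 0.361). The small RNAs themselves are not reliably captured by a poly(A)+ library and were not read.

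Of 24 tested genes in the lists around the EEP enzymes 8 were lower, or 33.3%, against 14.7% of all genes tested and 31.3% of well-counted genes. Several of the 24, Per1 among them, lie below the level of the well-counted genes, so neither share is a matched background. Of the 8 lower genes, 3 (Ddx1, Rtraf, Rtcb) were still called with library totals. Of 10 tested clock genes, chosen since Noct is a rhythmic gene, 2 fell and none rose, with a median of -0.19: Per1 and Cry1, repressors of the clock, fell by 0.38 and 0.25 (adjusted p = 0.0103 and 0.0173, edgeR). Nr1d2 and Per2 stood at -0.27 and -1.22 (adjusted p = 0.0675 and 0.133, edgeR), Per2 at 10 to 30 counts. The list was not uniform: 3 genes, Nr1d1, Per3 and Cry2, stood above 0 at 0.37, 0.28 and 0.01 (adjusted p = 0.198, 0.333 and 0.955, edgeR). Both groups were collected at one time after transfection, and the phase of a clock was not measured. Of 7 genes of mitochondrial RNA metabolism, the setting of PDE12, 1 rose and 3 fell with a median of -0.12; Pnpt1, the mitochondrial polynucleotide phosphorylase, rose by 0.20 (adjusted p = 0.0370), and the helicase gene Supv3l1, the tRNA 3′ processing gene Elac2 and the RNA stability gene Lrpprc fell by 0.25, 0.20 and 0.18 (adjusted p = 0.0128, 0.0176 and 0.0307, edgeR). Counts from mitochondrial chromosome genes made up 1.17 and 1.401% of the siNT libraries and 2.11 and 1.76% of the siCnot1 libraries, and their relation to Pde12 was not tested. Of 7 tested genes of tRNA ligation and 2′,3′-cyclic phosphate ends, the chemistry shared with ANGEL2, 3 fell and none rose, with a median of -0.18. Ddx1, Rtraf and Rtcb, which code for subunits of the tRNA ligase complex, fell by 0.33, 0.33 and 0.30 (adjusted p = 6.26e-05, 0.000243 and 0.000733, edgeR), and Clp1, an RNA 5′ kinase, stood at 0.22 (adjusted p = 0.102). In the small nuclear RNA and clock lists no gene was higher at an unadjusted p under 0.05 and in the tRNA ligation list 1 was (Clp1), and DESeq2 and limma-voom called 0 genes higher in each of the 3 lists. Over all the lists besides the members, not only those around the EEP enzymes, there were 24 calls. Of the 24 calls in these lists 9 were kept in all 8 other ways of scaling, filtering or testing, and 4 of these also with any 1 library left out (Cnot1, Btg2, Ddx1, Rtraf). In contrast, 8 were lost in each of the 4 fits without 1 library (Cnot10, Tnrc6a, Nhp2, Naf1, Cry1, Lrpprc, Supv3l1, Elac2), and Naf1 and Lrpprc were called in 3 and 4 of the 8 other settings.

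**Figure D5:**
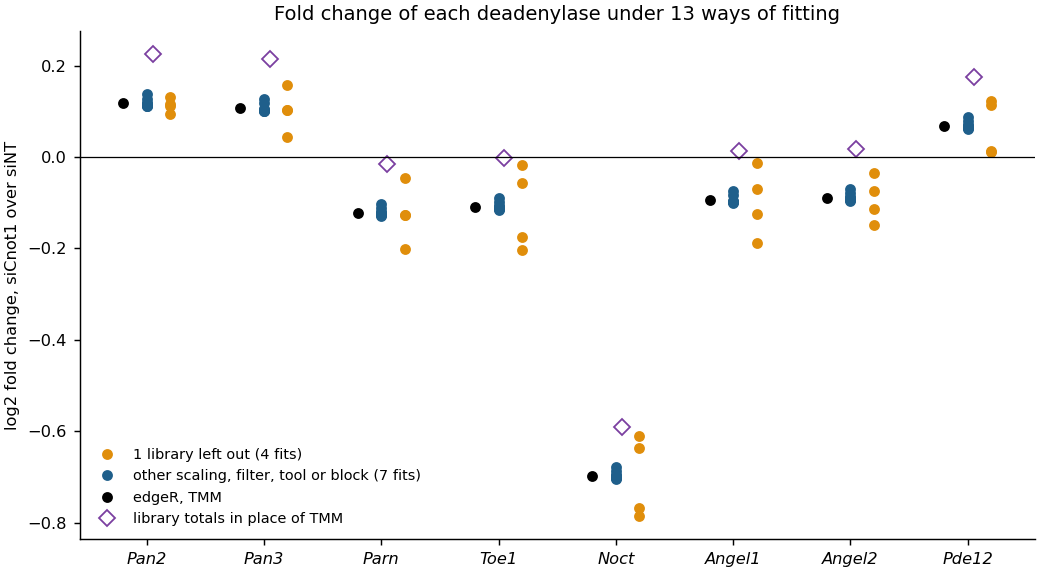
Log2 fold change, siCnot1 over siNT (vertical axis), of each deadenylase as fitted with TMM scaling in edgeR (black), under 7 other choices of scaling, filter, tool or block (blue), with library totals (purple diamonds) and with 1 library left out (orange). Noct stays between -0.79 and -0.59 throughout, and the library totals move all 8 members upward, which puts Angel1 and Angel2 just above 0.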

How the data were processed

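Poly(A)+ RNA of 2 siNT and 2 siCnot1 cultures was sequenced as paired ends after dUTP marking of the second strand. The authors deposited raw counts per gene, with no normalization or pooling, beside the summed exon length of each gene. The submitters' processing notes name fastp 0.19.4, HISAT2 2.2.1, DESeq2 1.40.2 and mm10, without roles; the counter and its strand setting are not given in the sources used here. Gene positions are those of GRCm39: 1312 of 48908 genes matched by symbol share a start or end with GRCm38, and 2 lie on scaffolds that carry newer names. Positions are printed as deposited, and sequences come from GRCm38 transcripts matched by name.

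Counts of all genes were fitted in edgeR 4.0.16 (R 4.3.3) with TMM scaling, filterByExpr at a minimum count of 10 and its quasi-likelihood test, and p-values were adjusted by Benjamini-Hochberg across the 18144 genes tested. Normalized CPM and FPKM use the TMM-scaled library size. Standard errors were derived from the F statistic (absolute log2 fold change over root F). DESeq2 1.42.0, limma-voom (limma 3.58.1), other scalings and filters, a replicate block and leaving out each library were alternatives. The fits were tested on simulated data. Members and lists were chosen with earlier results of these data known. Named were all members, Cnot1, the 4 CCR4-NOT nucleases, genes sharing exon bases with a member, and of other lists at most the 4 genes with the smallest adjusted p. Also named were the 3 clock genes above 0. Same-numbered replicates were not taken as pairs (correlation of their deviations over genes -0.006).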

Additional observations from a re-analysis of the deposited data

How the results depend on the processing

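Noct was lower in all 8 other choices of scaling, filter, tool or block (log2 fold change -0.70 to -0.59, largest adjusted p 0.00867) and in the 4 fits without 1 library (-0.79 to -0.61, adjusted p 0.00136 to 0.0217). Of 96 fold changes of members under these settings, 93 kept their direction and their side of the threshold. The other 3 came with library totals: Pan2 at 0.22 passed (1 member higher), and Angel1 and Angel2 turned to 0.014 and 0.018, with adjusted p of 0.932 and 0.895 (edgeR). That scaling shifted the median of all genes to 0.12 and called 3999 genes higher and 1563 lower, 71.9% higher against 50.5% with TMM. At the study's criteria the count of lower members was 0 with edgeR and 0 with DESeq2. Without a filter 1303 genes were higher and 1450 lower, and the cause was not tested. Without 1 library 743 to 1439 genes were higher and 871 to 1463 lower, with a single library in one group assumed to vary like the other group. The replicate block gave Noct -0.70 (adjusted p = 1.97e-07) and changed no member's call. Of the genes in the lists besides the members, 6 higher and 18 lower became 12 and 7 with library totals, 3 and 7 without a filter, and 2 to 4 and 3 to 7 without 1 library. With principal transcript lengths the share of Noct in the members' FPKM was 40.1% in siNT and 29.6% in siCnot1, against 45.4% and 34.5%. The summed CPM of the 7 members without Noct differed by -0.755 between siCnot1 and siNT with TMM and by 25.8 with library totals, a comparison chosen after seeing the data. With 2 libraries in each group, the intervals of the 7 members that did not pass allow changes of up to 1.21-fold upward and 0.808-fold downward with TMM, and that of Pan3 reaches 1.30-fold with library totals.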
